A study of Mus musculus with 15 samples.

Results

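The genes described here are the AP-1 transcription factors of the FOS and JUN families and the related BATF factors, measured in mouse bone marrow-derived macrophages (BMDMs). The members were chosen by name as 10 genes, namely Fos, Fosb, Fosl1, Fosl2, Jun, Junb, Jund, Batf, Batf2 and Batf3. Of these, 9 were analysed among the 51763 gene identifiers of the count table, and Jun was not analysed here. RNA was sequenced from 15 libraries after 24 h of stimulation, 3 for each of 5 conditions. HMGB1 is a nuclear protein that acts as an alarmin once outside the cell, where it is found in several redox forms. The conditions were PBS (unstimulated), HMGB1 in the disulfide form at 5 µg/mL (dsHMGB1), HMGB1 in the fully reduced form at the same concentration (frHMGB1), LPS-EK at 1 µg/mL (LPS), and LPS-EK together with IFNγ at 20 ng/mL (LPS/IFNγ), which was the M1 stimulus of the study. For LPS/IFNγ the protocol text gives 100 ng/mL LPS and the treatment field gives 1 µg/mL, so LPS/IFNγ and LPS may differ in the LPS dose as well as in IFNγ. All cells were wild-type and came from female C57BL/6NTac mice of 8 to 10 weeks. Cells of 5 mice were pooled, matured with 10 ng/mL M-CSF, detached with trypsin and rested in medium with 1% serum before stimulation. The 3 replicates of a condition were wells of this 1 pool, so every p-value below covers the spread between wells and libraries and not between animals. Bulk RNA cannot tell a change in the number of cells of a type from a change in RNA per cell.

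AP-1 is a dimer of basic leucine zipper (bZIP) proteins. A FOS protein has to pair with a JUN protein to bind DNA, whereas JUN proteins can also pair with each other, and the preferred site is the sequence TGACTCA or, with ATF partners, TGACGTCA. In macrophages, toll-like receptor 4 (TLR4), the receptor of LPS and of dsHMGB1, reaches AP-1 through MAP kinases, and Fos and Junb are immediate early genes whose RNA rises and falls soon after a stimulus. BATF factors are small bZIP proteins without the activation domains of FOS; they pair with JUN proteins and, together with IRF4 or IRF8, bind composite elements. Batf2 is induced by interferon, and Batf3 is best known from cross-presenting dendritic cells.

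The upstream sequences of members are shown first because the induced and the reduced members are both AP-1 genes, and a reader may wish to see which of the letters that AP-1 and its relatives bind stand next to their starts. RefSeq promoters (GRCm38.p6) matched 7 of the 9 members, all but Fosl1 and Batf2, and the 250 bases before each start were searched on both strands. These starts differed from the gene starts given below by 1210 bases for Jund, 671 for Fosl2, 567 for Batf3 and at most 51 for the others. The Fosl2 and Batf3 windows lay inside the gene as placed below, and the Jund window lay well upstream of it. The full AP-1 letters TGACTCA stood in 0 of 7 members and in 4.46% of 32851 promoters, and TGACGTCA in 0 of 7 and in 1.55%. The first letters of the latter, TGACG, which every TGACGTCA also contains, stood in 4 of 7 members and in 17.8% of all promoters. The windows of those 4 members are given 5′ to 3′ on the gene's own strand with TGACG in capitals. Fos lies 150 to 1 bases before its start at chr12:85473740-85473889 (plus strand), Fosb likewise at chr7:19310046-19310195 (minus strand), Junb at chr8:84978749-84978898 (minus strand), and Batf 150 to 52 bases before its start at chr12:85686570-85686668 (plus strand).

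Fos: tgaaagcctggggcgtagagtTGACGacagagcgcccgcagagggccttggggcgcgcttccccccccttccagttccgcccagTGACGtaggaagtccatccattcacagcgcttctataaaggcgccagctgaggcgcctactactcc
Fosb: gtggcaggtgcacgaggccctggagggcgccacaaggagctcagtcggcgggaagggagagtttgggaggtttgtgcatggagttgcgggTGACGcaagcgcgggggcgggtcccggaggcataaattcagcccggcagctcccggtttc
Junb: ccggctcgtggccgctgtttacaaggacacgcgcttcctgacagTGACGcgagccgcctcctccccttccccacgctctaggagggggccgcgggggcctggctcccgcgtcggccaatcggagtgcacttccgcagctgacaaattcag
Batf: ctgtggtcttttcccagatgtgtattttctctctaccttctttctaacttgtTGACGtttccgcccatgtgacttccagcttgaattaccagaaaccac

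Fos carried TGACG at 129 and at 66 bases before its start, and Fosb, Junb and Batf carried it at 60, 106 and 98 bases.

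The letters of the interferon-stimulated response element stood in 1 of 7 members, Fosl2, and in 2.98% of all promoters, the kappaB consensus in 3 of 7 (Fos, Fosb and Fosl2) and 7.25%, the CArG box in 0 of 7 and 1.47%, and TATAAA in 1 of 7 (Fos, 33 bases before the start) and 12.4%. The Fosl2 matches lie past the gene start given for it below. A match is a description of letters and not of binding, and a missing match says only that these letters are not in this window.

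The libraries held 40934540 to 80925478 counts. PBS replicate 3 stood apart: its correlation with the other PBS libraries was 0.97 (Pearson's r of log2 CPM over genes), against 0.997 or more within the other conditions and 0.999 between PBS replicates 1 and 2. Mitochondrial genes took 0.346% of its counts and processed pseudogenes 1.49%, against 0.84% to 0.89% and 0.805% to 0.816% in the other PBS libraries. The members moved with it as well. In PBS replicate 3, Jund was 4.06 times and Batf3 4.55 times the mean of PBS replicates 1 and 2, Junb, Batf and Batf2 were 1.81, 1.85 and 1.65 times that mean, Fos, Fosl2 and Fosb were 0.455, 0.519 and 0.193 times, and Fosl1 had 0 counts. Values of the members against PBS are therefore also given without this library, which also widens the spread that the fit shares over all conditions; for other genes it is said where leaving it out changed a call against PBS. dsHMGB1 replicate 1 also departed from its condition, though less. Its r with dsHMGB1 replicates 2 and 3 was 0.9972 and 0.9981, against 0.9989 between those. Within frHMGB1, LPS and LPS/IFNγ r was 0.9987 or more. Deviations from the condition means, taken over genes, correlated at 0.764 between dsHMGB1 replicate 1 and PBS replicate 3. Among the dsHMGB1 libraries, Jund, Batf3 and Junb were highest and Fos lowest in replicate 1. Macrophage markers (Csf1r, Adgre1, Cd68, Itgam, Lyz2, Mertk, Fcgr1 and Cd14) summed to 13520 to 27281 CPM, T, NK and B cell markers to at most 0.12 CPM, neutrophil markers to at most 5.47 CPM and fibroblast markers to between 118 and 282 CPM. Cd3d, Cd3e, Cd8a, Nkg7, Ly6g, Mpo and S100a9 had 0 counts in all libraries, which allows up to 3 counts in each.

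**Figure D1:**
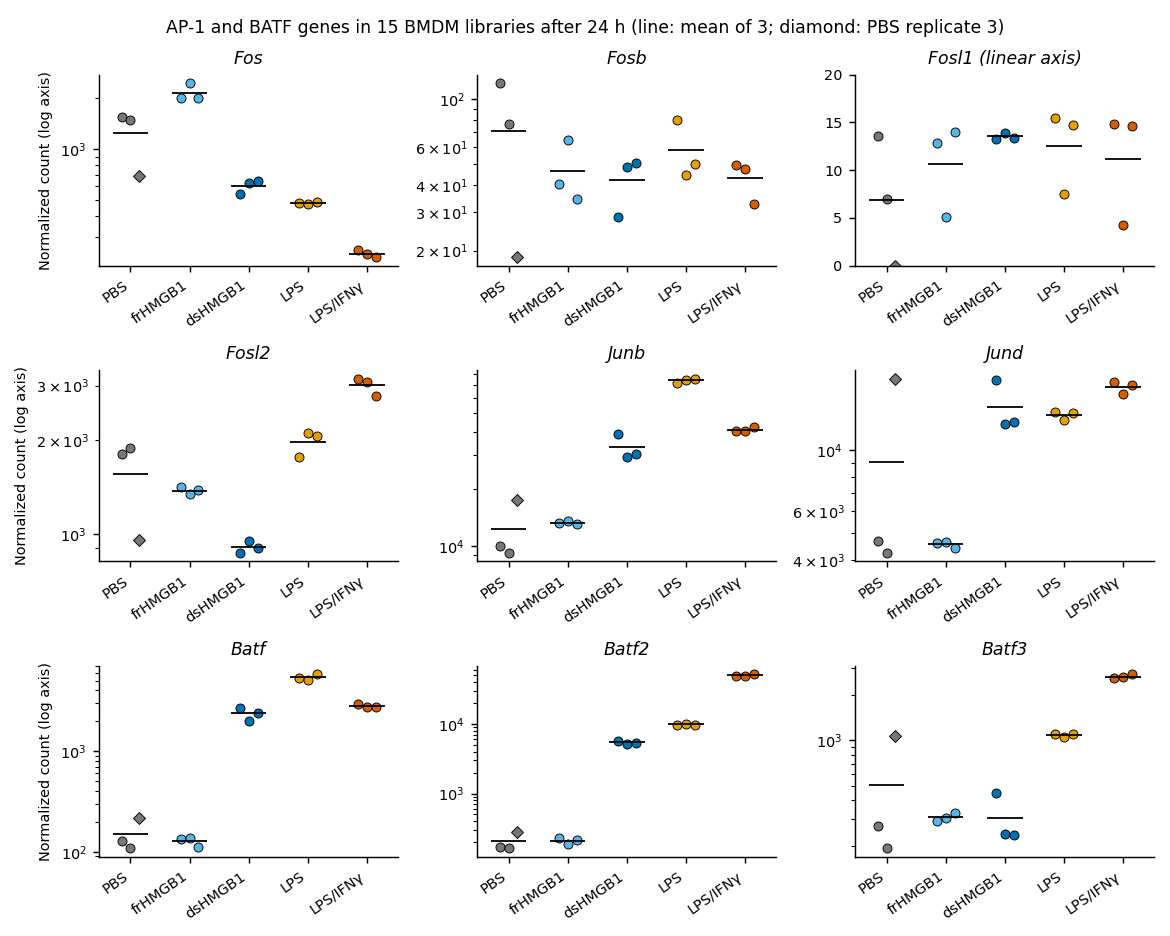
Normalized counts (DESeq2 size factors) of the 9 genes in each of the 15 libraries, on a log axis except for Fosl1, whose axis is linear because PBS replicate 3 had 0 counts. Points are libraries, lines are means of 3, and the diamond is PBS replicate 3; Batf2 ran from 165 in a PBS library to 51268 in an LPS/IFNγ library, and Fos from 2451 after frHMGB1 down to 229 after LPS/IFNγ.

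After dsHMGB1, LPS and LPS/IFNγ, Junb, Batf and Batf2 rose, Fos fell, and Fosl2 fell after dsHMGB1 and rose after LPS/IFNγ. After frHMGB1, 0 of 9 members were called by edgeR at an adjusted p under 0.05, where 7.00% of all 16919 genes tested were called. In this comparison 2 members had an unadjusted p under 0.05, DESeq2 called 1 (Fos), and without PBS replicate 3 edgeR called 5, with 17.5% of all genes called. The 7.00% depended on the genes and libraries fitted. With protein-coding genes only, as all 9 members are, edgeR called 41 of 13025 genes higher and 29 lower. With only frHMGB1 and PBS fitted, it called 7 of 14887 genes higher and 182 lower. This limit holds wherever the 7.00% is given below. dsHMGB1 against PBS gave 5 called members, 3 higher and 2 lower, beside 47.4% of all genes (7 members and 58.8% without PBS replicate 3). LPS against PBS gave 4, 3 higher and 1 lower, beside 62.9% (7 and 71.2% without that library), and LPS/IFNγ against PBS gave 6, 5 higher and 1 lower, beside 60.3% (8 and 67.7%). In these 3 comparisons members were called at rates near those of all genes. The median log2 fold change over the members was 0.67 after dsHMGB1, 0.80 after LPS and 0.95 after LPS/IFNγ, beside -0.10, -0.21 and -0.12 over all genes tested, and -0.17 beside -0.01 after frHMGB1. All 9 members passed the filter on low counts.

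By the study's own cut-off, a log2 fold change above 2 or below -2 with no test, 0 members passed after frHMGB1, where 0.609% of all genes were above it and 6.83% below. After dsHMGB1, Batf and Batf2 were above it (8.43% of all genes), after LPS these and Junb (10.9%), and after LPS/IFNγ Batf, Batf2 and Batf3 (12.1%), while Fos was below it (9.69%). Between stimuli, Batf and Batf2 were above it for dsHMGB1 against frHMGB1 (13.7% of all genes), Batf2 for LPS/IFNγ against LPS (7.60%), and Batf2 and Batf3 below it for dsHMGB1 against LPS/IFNγ (3.81%). For dsHMGB1 against LPS 0 members passed it, where 6.86% of all genes were above and 1.51% below.

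**Figure D2:**
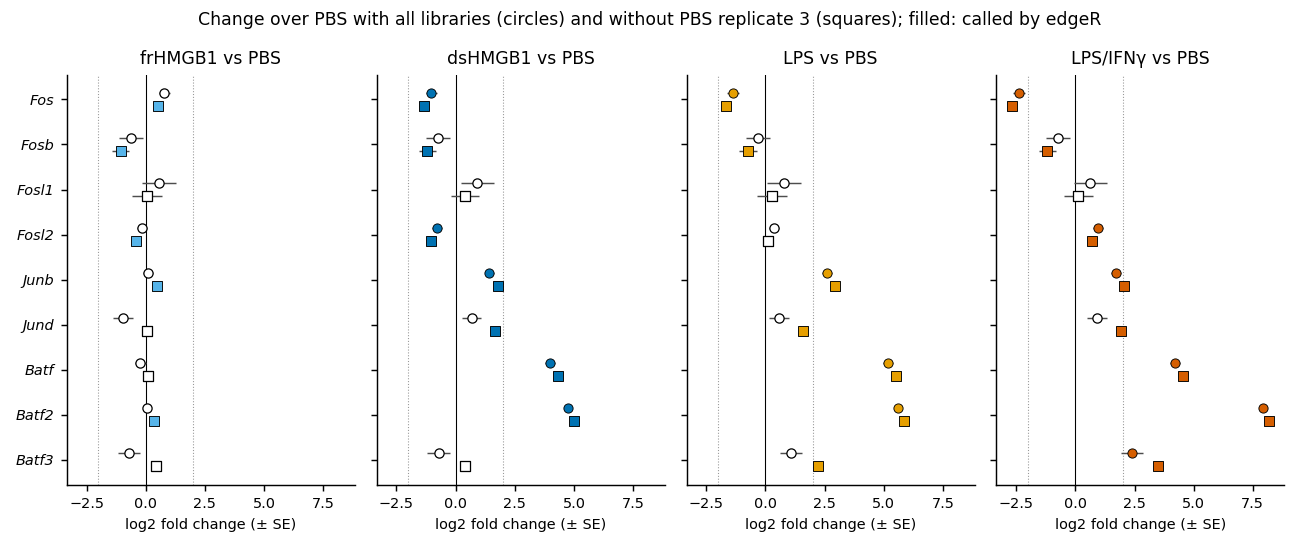
Log2 fold change over PBS with its standard error (DESeq2) for each gene and stimulation, with all 15 libraries (circles) and without PBS replicate 3 (squares); filled symbols were called by edgeR and dotted lines mark 2 and -2. Batf and Batf2 lie far to the right after dsHMGB1, LPS and LPS/IFNγ in both fits, and Jund after LPS moves from 0.57 (not called) to 1.58 (called).

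In the FOS family, Fos fell after dsHMGB1, LPS and LPS/IFNγ. Fos (ENSMUSG00000021250, chromosome 12, 85473890 to 85477273, GRCm38) encodes c-Fos, the prototype immediate early AP-1 subunit. Normalized counts of Fos were 1544, 1477 and 688 in the PBS libraries, 1999, 2451 and 1992 after frHMGB1, 544, 625 and 649 after dsHMGB1, 480, 475 and 487 after LPS, and 251, 240 and 229 after LPS/IFNγ. The frHMGB1 libraries were the highest and the LPS/IFNγ libraries the lowest, and no condition overlapped another; PBS replicate 3 came nearest to the dsHMGB1 libraries. Against PBS, Fos fell by 1.03 on the log2 scale after dsHMGB1 (SE 0.24, adjusted p = 0.0029), by 1.37 after LPS (SE 0.25, adjusted p = 0.000199) and by 2.37 after LPS/IFNγ (SE 0.25, adjusted p = 2.26e-06), the last a 5.15-fold lower level. Without PBS replicate 3 these values were -1.32, -1.66 and -2.66, all called. Leaving the other conditions out of the fit gave an adjusted p of 0.0613 for dsHMGB1 against PBS, and over all alternatives it ran from 8.71e-10 to 0.0613.

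frHMGB1 gave the opposite sign for Fos. The log2 fold change over PBS was 0.79 (SE 0.24, adjusted p = 0.0714), which did not pass in edgeR. It was 0.51 (SE 0.10) without PBS replicate 3 and was then called. Fos also passed when PBS replicate 1 or PBS replicate 2 was left out, and in DESeq2 (adjusted p = 0.0133), and its adjusted p over all alternatives ran from 0.00129 to 0.587. In the ordered levels, LPS/IFNγ lay below LPS (adjusted p = 0.0114) and dsHMGB1 below PBS (adjusted p = 0.0029), and neither LPS and dsHMGB1 (adjusted p = 0.288) nor PBS and frHMGB1 were separated. Fos was called higher after dsHMGB1 than after LPS when PBS replicate 3 was left out (adjusted p = 0.00447) and when only those conditions were fitted, although neither condition holds that library. The 5 fixed handling and heat shock genes (Hspa1a, Hspa1b, Dnajb1, Hsph1 and Hspb1) summed to 85.1 to 119 CPM in PBS and 101 to 111 after frHMGB1, against 55.9 to 58.3 after dsHMGB1, 52.6 to 54.3 after LPS and 62.2 to 67.1 after LPS/IFNγ. These sums are in CPM, whereas the counts of Fos are normalized by size factors, and the 5 genes did not move together. Mean normalized counts in PBS and after dsHMGB1, LPS and LPS/IFNγ were 2379, 1072, 814 and 895 for Hsph1. They were 2167, 1910, 2581 and 3348 for Dnajb1, and 145, 277, 373 and 369 for Hspa1b. The part of handling in the level of Fos was not tested.

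Fosl2 (ENSMUSG00000029135, chromosome 5, 32135801 to 32157842) encodes FRA2, a FOS protein without the strong activation domain of c-Fos. Its normalized counts were 1809, 1895 and 961 in PBS, 1414, 1344 and 1382 after frHMGB1, 873, 949 and 903 after dsHMGB1, 1767, 2110 and 2070 after LPS, and 3156, 3075 and 2781 after LPS/IFNγ. The 3 dsHMGB1 libraries were the lowest and the 3 LPS/IFNγ libraries the highest, while LPS and PBS overlapped. Fosl2 fell after dsHMGB1 by 0.78 on the log2 scale (SE 0.21, adjusted p = 0.00633) and rose after LPS/IFNγ by 0.95 (SE 0.21, adjusted p = 0.00188). The first call was lost when only dsHMGB1 and PBS were fitted (adjusted p = 0.0887). Without PBS replicate 3 the values were -1.03 and 0.69, both called. The value after LPS was 0.35 (SE 0.21, adjusted p = 0.266), and 0.09 without PBS replicate 3. In its absence the frHMGB1 value was -0.42 and was called, against -0.17 (adjusted p = 0.745) with it.

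Fosl2 was also compared between the stimuli directly. It was 2.18-fold lower after dsHMGB1 than after LPS (log2 fold change -1.13, SE 0.21, adjusted p = 0.00189) and 3.31-fold lower than after LPS/IFNγ (-1.73, SE 0.21, adjusted p = 3.18e-05). The difference of dsHMGB1 from frHMGB1 was smaller (-0.60, SE 0.21, adjusted p = 0.0221) and was lost in 5 of 22 alternatives, with adjusted p between 5.53e-07 and 0.0808. The rise from LPS to LPS/IFNγ (0.60, SE 0.21, adjusted p = 0.0376) was lost in 12 of 22 alternatives, those that left out any 1 library outside PBS, with adjusted p between 7.04e-08 and 0.169. Because the LPS/IFNγ arm may have had less LPS, dose and IFNγ cannot be told apart here.

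Fosb and Fosl1 were near the lower end of detection. Fosb (ENSMUSG00000003545, chromosome 7, 19302696 to 19310051), a close relative of c-Fos, had 18.7 to 118 normalized counts over the libraries, with 118, 76.3 and 18.7 in the PBS libraries alone. Neither edgeR nor DESeq2 called Fosb in any comparison with all libraries, and its lowest unadjusted p in edgeR was 0.14. With PBS replicate 3 left out it was called lower after all 4 stimulations, with log2 fold changes of -1.06, -1.19, -0.74 and -1.18 in the order frHMGB1, dsHMGB1, LPS and LPS/IFNγ, so its call against PBS depends on PBS replicate 3. Fosl1 (ENSMUSG00000024912, chromosome 19, 5447547 to 5455946), which encodes FRA1, had 0 to 15.5 normalized counts and 27 to 50 raw counts summed per condition. No difference was detectable at this depth for Fosl1 in any comparison by edgeR or DESeq2, with a lowest unadjusted p of 0.26. PBS replicate 3 had 0 counts of Fosl1, which allows up to 0.0659 CPM, and leaving it out gave no call either, with values of 0.05, 0.40, 0.29 and 0.13 on the log2 scale after frHMGB1, dsHMGB1, LPS and LPS/IFNγ. Of its exon bases 57.2% overlap Ccdc85b on the other strand, whose mean normalized count went from 1339 in PBS to 42.0 after LPS/IFNγ. The library kit keeps strand, but the strand setting of the counting is not given in the sources used here.

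In the JUN family, Junb rose after dsHMGB1, LPS and LPS/IFNγ. Junb (ENSMUSG00000052837, chromosome 8, 84974484 to 84978718) encodes JunB, the JUN partner that BATF factors often take. Its normalized counts were 10078, 9269 and 17530 in PBS, 13172, 13623 and 13072 after frHMGB1, 38957, 29550 and 30656 after dsHMGB1, 71926, 74858 and 75751 after LPS, and 40105, 40101 and 42144 after LPS/IFNγ. The 3 LPS libraries were the highest by far, the dsHMGB1 and LPS/IFNγ libraries came next without overlapping, and the frHMGB1 libraries fell inside the PBS range. The log2 fold change of Junb over PBS was 1.43 after dsHMGB1 (SE 0.21, adjusted p = 1.61e-05), 2.59 after LPS (SE 0.21, adjusted p = 4.36e-08) and 1.73 after LPS/IFNγ (SE 0.21, adjusted p = 1.67e-06). Leaving PBS replicate 3 out gave 1.77, 2.93 and 2.07. After frHMGB1 the value was 0.11 (adjusted p = 0.739), and 0.46 without that library, which was called.

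Junb after LPS was higher than after either of the other inflammatory stimuli. The dsHMGB1 level was 2.24-fold lower (log2 fold change -1.17, SE 0.21, adjusted p = 0.000382) and the LPS/IFNγ level 1.82-fold lower (-0.86, SE 0.21, adjusted p = 0.00307). dsHMGB1 and LPS/IFNγ were not separated (-0.30, SE 0.21, adjusted p = 0.239). That difference was called without PBS replicate 3 and when only those groups were fitted, with adjusted p between 0.00679 and 0.482 over the alternatives. Junb shares 173 exon bases, 7.5% of its length, with Prdx2 on the other strand, whose mean normalized count was 11310 in PBS and 4934 to 7543 under stimulation.

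Jund shows most plainly how much 1 library can decide. Jund (ENSMUSG00000071076, chromosome 8, 70698949 to 70700616, a single exon) encodes JunD, the JUN protein that is usually made steadily in resting cells. Its normalized counts were 4696, 4252 and 18158 in PBS, 4621, 4648 and 4433 after frHMGB1, 17949, 12446 and 12667 after dsHMGB1, 13721, 12902 and 13638 after LPS, and 17600, 15935 and 17218 after LPS/IFNγ. PBS replicate 3 was the highest of all 15 libraries, whereas PBS replicates 1 and 2 lay with frHMGB1. With all libraries, edgeR called Jund in no comparison with PBS (unadjusted p under 0.05 after frHMGB1 and LPS/IFNγ, DESeq2 call after LPS/IFNγ), and its log2 fold changes were -0.98, 0.67, 0.57 and 0.91 (SE 0.42 each) in the order frHMGB1, dsHMGB1, LPS and LPS/IFNγ.

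Once PBS replicate 3 was left out, these became 0.03, 1.68, 1.58 and 1.91 (SE 0.12 each), and the last 3 were called. Comparisons that do not use PBS bear on the same levels: Jund was higher than after frHMGB1 by 1.65 on the log2 scale after dsHMGB1 (SE 0.42, adjusted p = 0.00388), by 1.55 after LPS (adjusted p = 0.00611) and by 1.89 after LPS/IFNγ (adjusted p = 0.00117). No difference in Jund was called among dsHMGB1, LPS and LPS/IFNγ, where the log2 differences were 0.10, -0.24 and 0.33 (SE 0.42 each) for dsHMGB1 against LPS, dsHMGB1 against LPS/IFNγ and LPS/IFNγ against LPS. The last was called without PBS replicate 3, where its SE was 0.11. Of the Jund exon 52.6% overlaps Gm11175 on the other strand, which had a mean of 0.0 normalized counts in every condition.

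The BATF family held the largest changes among the members. Batf (ENSMUSG00000034266, chromosome 12, 85686669 to 85709087) encodes the founding BATF protein, known from T helper cell differentiation. Its normalized counts were 127, 109 and 218 in PBS, 134, 136 and 112 after frHMGB1, 2698, 2001 and 2379 after dsHMGB1, 5282, 5090 and 5779 after LPS, and 2915, 2708 and 2744 after LPS/IFNγ. The PBS and frHMGB1 libraries overlapped at the bottom, the LPS libraries stood alone at the top, and every dsHMGB1 library lay below every LPS/IFNγ library but by little. Batf rose 15.8-fold after dsHMGB1 (log2 fold change 3.98, SE 0.21, adjusted p = 2.77e-09), 36.1-fold after LPS (5.17, SE 0.21, adjusted p = 2.03e-10) and 18.7-fold after LPS/IFNγ (4.23, SE 0.21, adjusted p = 9.4e-10). Without PBS replicate 3 the log2 fold changes were 4.32, 5.51 and 4.56. It was called in these 3 comparisons under every alternative test and without any 1 library. After frHMGB1 the value without PBS replicate 3 was 0.11, not called.

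For Batf, as for Junb, the mean level was highest after LPS, followed by LPS/IFNγ and then dsHMGB1. LPS lay above LPS/IFNγ (the latter by -0.95 on the log2 scale, SE 0.21, adjusted p = 0.00218) and above dsHMGB1 (-1.19, SE 0.20, adjusted p = 0.000464). dsHMGB1 and LPS/IFNγ were not separated (-0.24, SE 0.21, adjusted p = 0.395), nor were PBS and frHMGB1 (-0.23, SE 0.23, adjusted p = 0.662). The T and NK cell markers Cd3d, Cd3e, Cd8a and Nkg7 were at 0 counts in all libraries.

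Batf2 was the member with the largest rise over PBS, and its level after LPS/IFNγ was well above that after LPS. Batf2 (ENSMUSG00000039699, chromosome 19, 6140983 to 6172476) encodes an interferon-induced BATF protein that is known to act with IRF1 in activated macrophages. Its normalized counts were 173, 165 and 279 in PBS, 228, 191 and 216 after frHMGB1, 5730, 5143 and 5309 after dsHMGB1, 9699, 9970 and 9675 after LPS, and 49103, 48855 and 51268 after LPS/IFNγ. The 3 inflammatory conditions formed 3 separate steps, and PBS and frHMGB1 overlapped. Batf2 rose 26.6-fold after dsHMGB1 (log2 fold change 4.74, SE 0.16, adjusted p = 4.41e-11), 48.3-fold after LPS (5.59, SE 0.16, adjusted p = 8.13e-12) and 246-fold after LPS/IFNγ (7.94, SE 0.16, adjusted p = 7.78e-13). These became 4.99, 5.85 and 8.19 without PBS replicate 3, all called.

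Each step of Batf2 was larger than the spread between libraries. It was 1.81-fold lower after dsHMGB1 than after LPS (log2 fold change -0.86, SE 0.15, adjusted p = 0.000697), 9.22-fold lower than after LPS/IFNγ (-3.21, SE 0.15, adjusted p = 3.74e-09), and 5.09-fold higher after LPS/IFNγ than after LPS (2.35, SE 0.15, adjusted p = 8.06e-08). The frHMGB1 value was 0.06 (SE 0.17, adjusted p = 0.838) and became 0.33 (SE 0.11), called, without PBS replicate 3. Batf2 shares 51 exon bases, 2.0% of its length, with Arl2 on the other strand, and the mean normalized count of Arl2 was 1867 in PBS and 1134 after LPS/IFNγ.

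Batf3 rose after LPS/IFNγ. Batf3 (ENSMUSG00000026630, chromosome 1, 191097847 to 191108945) had normalized counts of 272, 193 and 1059 in PBS, 293, 307 and 331 after frHMGB1, 445, 241 and 236 after dsHMGB1, 1099, 1043 and 1097 after LPS, and 2581, 2613 and 2735 after LPS/IFNγ. The LPS/IFNγ libraries were the highest, and PBS replicate 3 reached the LPS level while the other PBS libraries lay with frHMGB1 and dsHMGB1. Over PBS the log2 fold change was 2.38 after LPS/IFNγ (SE 0.47, adjusted p = 0.000544) and 1.09 after LPS (SE 0.47, adjusted p = 0.0525), which did not pass. They were 3.50 and 2.21 (SE 0.20 each) without PBS replicate 3, both called, and the adjusted p for LPS ran from 2.55e-08 to 0.178 over the alternatives. For frHMGB1 and dsHMGB1 the values were -0.71 and -0.72 (SE 0.47 each) with all libraries and 0.42 and 0.40 (SE 0.20 each) without PBS replicate 3, called in neither fit. With PBS replicate 2 left out instead, Batf3 was called lower after dsHMGB1 (adjusted p = 0.0383 in edgeR), so sign and call depend on the PBS library left out.

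Unlike Batf and Batf2, Batf3 showed no called rise over PBS after dsHMGB1. This difference between genes was not tested, and the direct comparisons here are between stimuli for Batf3 alone. Batf3 was 3.51-fold lower after dsHMGB1 than after LPS (log2 fold change -1.81, SE 0.47, adjusted p = 0.012) and 8.60-fold lower than after LPS/IFNγ (-3.10, SE 0.47, adjusted p = 0.000225). The first of these was lost when dsHMGB1 replicate 2 or dsHMGB1 replicate 3 was left out, with adjusted p between 1.34e-07 and 0.0559 over the alternatives. The rise from LPS to LPS/IFNγ (1.29, SE 0.47, adjusted p = 0.045) was lost in 15 of 22 alternatives, with adjusted p between 4.99e-14 and 0.131, though the libraries of LPS and LPS/IFNγ did not overlap. dsHMGB1 and frHMGB1 were not separated (-0.01, SE 0.47, adjusted p = 0.95).

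Dendritic cell markers were set beside Batf3. The 6 markers (Zbtb46, Flt3, Xcr1, Clec9a, Itgae and Kit) summed to 7.41 to 12.4 CPM in PBS, 8.77 to 9.21 after frHMGB1, 6.68 to 7.27 after dsHMGB1, 11.1 to 12.6 after LPS and 15.5 to 16.6 after LPS/IFNγ. Of them, Zbtb46 had mean levels of 0.331 CPM in PBS and 7.03 after LPS/IFNγ and Xcr1 of 1.68 and 6.57, whereas Clec9a went from 2.61 to 0.918, Kit from 5.82 to 1.68 and Itgae from 0.245 to 0. Flt3 had 6 counts in all libraries together and 0 in PBS, frHMGB1 and dsHMGB1. These levels are in CPM, whereas the counts of Batf3 are normalized by size factors, so they do not compare directly. Size-factor means in PBS and after LPS/IFNγ were 14.2 and 515 for Zbtb46 and 81.2 and 481 for Xcr1. They were 117 and 67.1 for Clec9a, 256 and 123 for Kit, and 11.2 and 0 for Itgae. After frHMGB1 and dsHMGB1 they were 18.8 and 73.4 for Zbtb46, 29.2 and 137 for Xcr1, and 122 and 9.73 for Clec9a. Kit had 216 and 182 there, and Itgae 10.1 and 4.12. The part of such cells in the level of Batf3 was not tested.

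With the levels of a gene over the 5 conditions set in order, 12 of the 36 neighbouring pairs were separated at an adjusted p under 0.05. Batf2 had 3 of them, Fos, Fosl2, Junb and Batf had 2 each, Batf3 had 1 (LPS below LPS/IFNγ), and Fosb, Fosl1 and Jund had 0. Without PBS replicate 3 the number was 21 of 36.

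The direct comparisons of the stimuli were summarised in the same way. dsHMGB1 against frHMGB1, compared the redox forms at the same dose, although by the study's methods the preparations also differed in source and buffer: dsHMGB1 came from another laboratory and was made without the reducing agent DTT, and frHMGB1 was made with it. edgeR called 6 of 9 members, 4 higher (Junb, Jund, Batf and Batf2) and 2 lower (Fos and Fosl2), beside 50.8% of all genes. Fos was 3.54-fold lower after dsHMGB1 than after frHMGB1 (log2 fold change -1.83, SE 0.24, adjusted p = 3.42e-05), Junb 2.49-fold higher (1.31, SE 0.21, adjusted p = 3.93e-05), Batf 18.5-fold higher (4.21, SE 0.22, adjusted p = 2.16e-09) and Batf2 25.5-fold higher (4.67, SE 0.16, adjusted p = 6.31e-11). Neither group in this comparison contains PBS replicate 3, and the same number of members was called without it, beside 68.7% of all genes.

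dsHMGB1 against LPS called 5 members, all lower after dsHMGB1 (Fosl2, Junb, Batf, Batf2 and Batf3), beside 26.4% of all genes and 10.6% in the lower direction. The median over the members was -0.86, beside 0.02 over all genes tested. dsHMGB1 against LPS/IFNγ called 4, with Fos higher and Fosl2, Batf2 and Batf3 lower, beside 33.2%. Fos was 2.52-fold higher (log2 fold change 1.34, SE 0.25, adjusted p = 0.000871). LPS/IFNγ against LPS called 6, with Fosl2, Batf2 and Batf3 higher and Fos, Junb and Batf lower, beside 25.7%. Fos was 2.00-fold lower there (SE 0.25 on the log2 scale, adjusted p = 0.0114). The BATF members thus divided between these arms, Batf higher after LPS and Batf2 and Batf3 higher after LPS/IFNγ. Without PBS replicate 3 the counts were 6, 5 and 7 of 9, beside 48.8%, 53.3% and 49.4% of all genes.

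Levels of different genes were compared per kilobase of exon. Of the summed level of the 6 FOS and JUN genes analysed, Junb and Jund together made up 87.9% to 99.0% over the libraries. Junb had 49.6% ± 8.08 (SD, n = 3) in PBS, 60.3% ± 0.512 after frHMGB1, 61.7% ± 1.12 after dsHMGB1, 79.2% ± 0.791 after LPS and 62.7% ± 1.19 after LPS/IFNγ. Jund had 42.3% ± 13.3, 28.6% ± 0.516, 36.7% ± 1.48, 19.8% ± 0.811 and 35.8% ± 1.16 in the same order. The LPS libraries thus had the highest Junb share and the lowest Jund share, with no overlap with another condition. Fos had 6.05% ± 3.90 in PBS and 9.51% ± 0.879 after frHMGB1, against 1.14% ± 0.269 after dsHMGB1, 0.502% ± 0.00802 after LPS and 0.361% ± 0.0221 after LPS/IFNγ. In PBS replicate 3 the share of Jund was 57.6% and that of Fos 1.55%, and without it the PBS shares were 54.3% for Junb, 34.6% for Jund and 8.30% for Fos. These shares leave Jun out and are of RNA, so they do not give the make-up of AP-1 dimers.

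**Figure D3:**
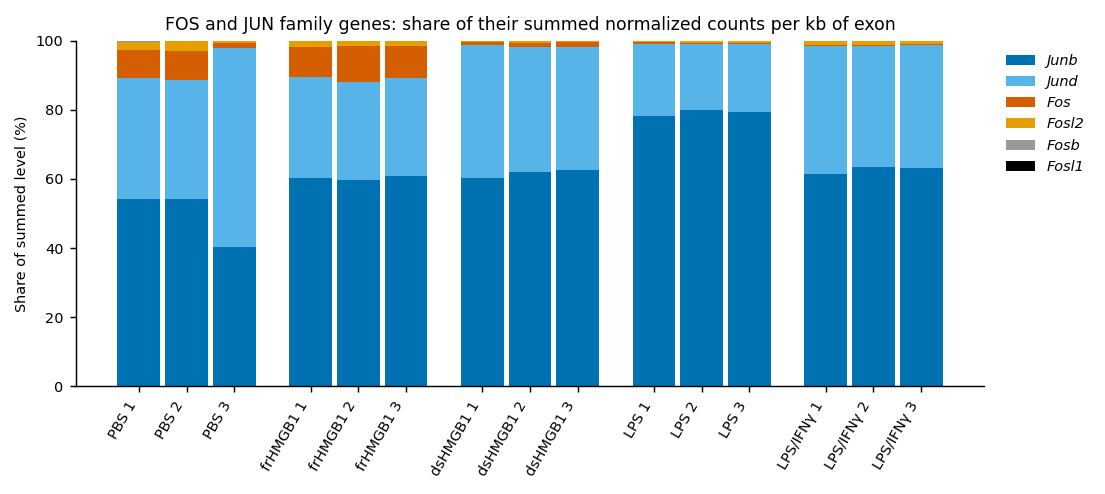
Share of each FOS and JUN gene in the summed level of the 6 genes analysed (normalized counts per kilobase of exon, in percent), 1 bar per library. Junb took 78.4% to 79.9% in the LPS libraries, and Fos took 8.94% to 10.5% after frHMGB1 and under 1% after LPS and LPS/IFNγ.

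Ratios per kilobase of exon describe the balance within families. Fosl2 stood at 0.312 ± 0.0274 (SD, n = 3) of Fos in PBS, 0.158 ± 0.0214 after frHMGB1, 0.366 ± 0.0262 after dsHMGB1, 1.00 ± 0.0956 after LPS and 3.04 ± 0.085 after LPS/IFNγ, so that Fosl2 exceeded Fos in all 3 LPS/IFNγ libraries. This ratio was little moved by PBS replicate 3, as its PBS range was 0.285 to 0.339. The ratio of Batf2 to Batf was 0.772 ± 0.0664 in PBS, 0.935 ± 0.145 after frHMGB1, 1.29 ± 0.13 after dsHMGB1, 1.02 ± 0.0795 after LPS and 9.96 ± 0.522 after LPS/IFNγ. The ratio of Batf to Batf3 was 0.468 ± 0.211 in PBS and 9.25 ± 2.28 after dsHMGB1, and it was 5.66 ± 0.282 after LPS and 1.20 ± 0.0743 after LPS/IFNγ. The summed level of the 3 BATF genes was 507 ± 366 in PBS, 369 ± 4.12 after frHMGB1, 4009 ± 431 after dsHMGB1, 8384 ± 219 after LPS and 23362 ± 557 after LPS/IFNγ, in normalized counts per kilobase. PBS replicate 3 alone had 929, and without it the PBS mean was 296, below the frHMGB1 libraries instead of above them. The PBS ratios without it were 0.298 for Fosl2 to Fos, 0.802 for Batf2 to Batf and 0.585 for Batf to Batf3.

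The IRF partners of the BATF factors were measured beside them. Irf8 and Irf1 rose after dsHMGB1, LPS and LPS/IFNγ, and Irf4 rose after LPS and LPS/IFNγ. The log2 fold change of Irf8 over PBS was 0.96 (SE 0.06, adjusted p = 1.4e-07), 2.88 (adjusted p = 3.4e-12) and 4.95 (adjusted p = 7.23e-14) in that order, and Irf8 was higher after LPS/IFNγ than after LPS by 2.07 (SE 0.06, adjusted p = 2.58e-09), as Batf2 was. For Irf1 the values were 4.29, 4.64 and 4.91 (SE 0.13 each), and LPS/IFNγ and LPS were not separated (0.27, adjusted p = 0.0516) with all libraries, while Irf1 was called higher after LPS/IFNγ without PBS replicate 3 (0.27, adjusted p = 0.000591). Irf4 had a mean of only 33.9 normalized counts in PBS and 127 after LPS/IFNγ (log2 fold change 1.87, SE 0.25, adjusted p = 5.53e-05), with -0.69 (SE 0.28, adjusted p = 0.0609) after dsHMGB1. Called members of this list were 0, 2, 3 and 3 of 3 after frHMGB1, dsHMGB1, LPS and LPS/IFNγ, all higher, with medians of 0.03, 0.96, 2.88 and 4.91. The shares called over all genes in this order were 7.00%, 47.4%, 62.9% and 60.3%.

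Of 8 other bZIP factors (Atf2, Atf3, Atf7, Jdp2, Maf, Maff, Mafg and Mafk), 0 were called after frHMGB1. After dsHMGB1 6 were higher and 0 lower, after LPS 7 and 0, and after LPS/IFNγ 8 and 0. Of all genes, 7.00%, 47.4%, 62.9% and 60.3% were called in these comparisons. The medians of the 8 factors were 0.10, 1.10, 1.15 and 1.35. Jdp2, which encodes a JUN partner known as a repressor, rose with log2 fold changes of 4.03, 4.77 and 3.59 (SE 0.12 each) after dsHMGB1, LPS and LPS/IFNγ, and was lower after LPS/IFNγ than after LPS by -1.17 (SE 0.11, adjusted p = 4.4e-06), as Batf and Junb were. Maff, a small MAF protein, rose with values of 3.78, 5.11 and 5.58 (SE 0.10 each). Atf3, known as an LPS-induced repressor, was already at 42139 normalized counts in PBS and rose by 0.58 after LPS (SE 0.07, adjusted p = 0.000192) and by 0.33 after LPS/IFNγ (SE 0.07, adjusted p = 0.00865).

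**Figure D4:**
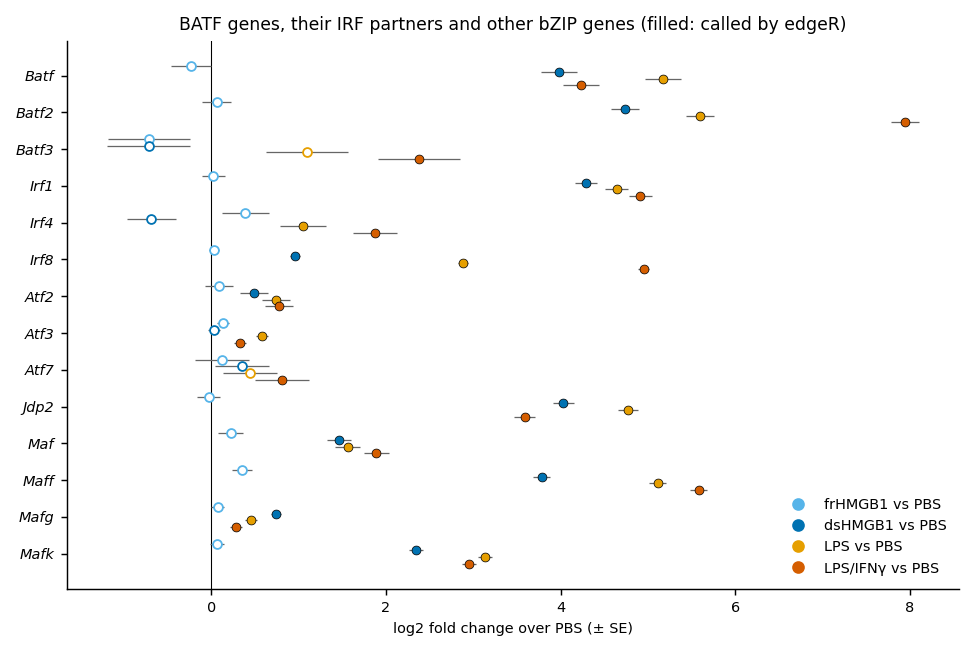
Log2 fold change over PBS with its standard error for the BATF genes, their IRF partners and the other bZIP genes, with 1 colour per stimulation and filled points for genes called by edgeR. All frHMGB1 points are open, with Batf3 at -0.71, and Batf2 reaches 7.94 and Irf8 4.95 after LPS/IFNγ.

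Upstream of AP-1, 13 MAP kinase genes were counted. None was called after frHMGB1 (median 0.10). After dsHMGB1 6 were higher and 2 lower (0.29), after LPS 6 and 2 (0.42), and after LPS/IFNγ 4 and 2 (0.13). Of all genes, 7.00%, 47.4%, 62.9% and 60.3% were called in these comparisons. Map3k8, the kinase TPL2 that links TLR4 to ERK, rose with log2 fold changes of 2.06, 3.17 and 2.82 (SE 0.24 each) after dsHMGB1, LPS and LPS/IFNγ, and Map2k4, a kinase of JNK, with 1.12, 2.25 and 2.39 (SE 0.21 each). Mapk3, which encodes ERK1, fell with -0.60, -0.63 and -1.12 (SE 0.20 each), and with -0.25, -0.29 and -0.78 without PBS replicate 3. Map2k6 had few counts, with mean normalized counts of 40.4 in PBS and 10.5, 5.9 and 7.01 after dsHMGB1, LPS and LPS/IFNγ. Of the SRF and ternary complex factors, which act on the Fos promoter, Srf, Elk1, Elk3 and Elk4, none was called after frHMGB1 or dsHMGB1. All genes were called at 7.00% and 47.4% there. Elk3 fell after LPS (-0.37, SE 0.08, adjusted p = 0.00137) and LPS/IFNγ (-1.39, SE 0.09, adjusted p = 2.15e-08), and Srf fell after LPS/IFNγ (-0.30, SE 0.11, adjusted p = 0.0307).

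Other immediate early genes did not all go with Fos. Of 12 listed, 7 were higher and 3 lower after dsHMGB1, 8 and 3 after LPS, and 7 and 4 after LPS/IFNγ, with 0 called after frHMGB1. All genes were called at 47.4%, 62.9%, 60.3% and 7.00% in these comparisons, in that order. Those that fell included Nr4a1, an orphan nuclear receptor (-1.81, -2.75 and -3.95), and Egr2, a zinc finger factor (-1.43, -1.87 and -3.13, SE 0.14 each). Nr4a3, another orphan nuclear receptor, rose (4.26, 7.24 and 7.90, SE 0.23 each). LPS/IFNγ against LPS called 1 of the 12 higher and 6 lower, beside 25.7% of all genes. The median was -1.15 beside 0.00 over all genes tested, and Fos was lower in the same comparison.

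Among 16 genes with textbook AP-1 sites, 14 were higher and 0 lower after dsHMGB1, 14 higher and 1 lower after LPS, and 15 higher and 1 lower after LPS/IFNγ, with medians of 2.08, 3.54 and 3.58, beside 47.4%, 62.9% and 60.3% of all genes called in either direction. After frHMGB1, 2 were called, Tnf (log2 fold change 1.46, SE 0.11, adjusted p = 8.03e-07) and Il1b (1.32, SE 0.21, adjusted p = 0.000411), both cytokine genes and both higher. Of all genes, 7.00% were called there. With 26.4% of all genes called and 10.6% called lower (median 0.02), dsHMGB1 against LPS gave 3 higher and 11 lower (median -1.41). The 3 were Mmp9, a gelatinase (1.18, SE 0.11, adjusted p = 9.9e-06), Plau, the urokinase gene (0.94, SE 0.11, adjusted p = 2.01e-05), and Hmox1, which encodes haem oxygenase (1.58, SE 0.09, adjusted p = 3.68e-08). Mmp13, a collagenase, was lower after dsHMGB1 than after LPS (-2.25, SE 0.11, adjusted p = 2.64e-08). These genes have sites for other factors too, and AP-1 binding was not measured. Of the 5 handling and heat shock genes, 0 were called after frHMGB1, and 1 was higher and 1 lower after dsHMGB1. After LPS and after LPS/IFNγ, 2 were higher and 1 lower. The shares called over all genes were 7.00%, 47.4%, 62.9% and 60.3% in this order.

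After frHMGB1, the lists in which edgeR called 0 genes held few genes with an unadjusted p under 0.05: 1 other bZIP factor and 1 SRF or ternary complex factor, and 0 in the MAP kinase, immediate early, IRF and heat shock lists. DESeq2 called 1 of the other bZIP factors and 0 in the other lists named here. For the SRF list after dsHMGB1 both counts were 0. With PBS replicate 3 left out, the calls after frHMGB1 were 1 other bZIP factor, 1 IRF partner and 4 genes with AP-1 sites, all higher, and 1 immediate early gene lower. All genes were then called at 17.5%, 58.8%, 71.2% and 67.7% after frHMGB1, dsHMGB1, LPS and LPS/IFNγ. In the other comparisons with PBS that omission left the bZIP counts as they were. It gave 8 MAP kinase genes higher after dsHMGB1 and 7 after LPS, and 3 lower after LPS/IFNγ, with Mapk14 added. Of the SRF and ternary complex factors, Elk4 was then higher after each of dsHMGB1, LPS and LPS/IFNγ, and Elk1 was lower after LPS and LPS/IFNγ, which brought the lower calls to 2 and 3. Irf4 was then called lower after dsHMGB1, and 8 immediate early genes were higher there, with Ier2 added. Ccnd1 was then lower after dsHMGB1 and LPS among the genes with AP-1 sites. Of the heat shock genes, 4 were higher after LPS and 2 lower after dsHMGB1.

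Genes whose levels ran most like a member over the 15 libraries were named by Pearson's r of log2(normalized count + 1) among 10101 protein-coding genes, as a description with no p. The 15 points are 5 conditions of 3 wells, share these conditions and include PBS replicate 3, so they are not independent. For Batf2 they were Serpina3g (r = 0.997), Yars (0.995) and Tgm2 (0.995), and for Batf they were Slc3a2 (0.998), Stip1 (0.998) and Eif3c (0.997). Junb was followed by Ran (0.996), Srsf7 (0.995) and Gramd1a (0.992), and Fos by Mavs (0.984), Sipa1 (0.984) and Gys1 (0.981). For Fosl2 they were Capn2 (0.973), Hmga2 (0.956) and Cyb561d1 (0.955). Jund went with Maip1 (0.985), Rsl24d1 (0.982) and Cd74 (0.977), and Batf3 with Ric8a (0.984), Txndc17 (0.976) and Dtd1 (0.975). Serpina3g had mean normalized counts of 33.3 in PBS, 25.3 after frHMGB1, 533 after dsHMGB1, 1017 after LPS and 4848 after LPS/IFNγ, the same steps as Batf2.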

How the data were processed

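RNA of 15 BMDM cultures (5 conditions, 3 wells each, 24 h) was measured by stranded mRNA sequencing. Per the labels, the authors used STAR with GRCm38, and they deposited raw counts per gene for 51763 Ensembl identifiers, of which 51661 were matched to names in GENCODE M21. How the authors counted (program, annotation, strand) is not given in the sources used here. The deposited counts carry no normalization or filter, and 0 columns lacked a sample. Wells were grouped by the labels and came from 1 pool of cells.

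Genes were kept by filterByExpr (about 10 counts in a condition's libraries and 15 in total, 16919 genes). A gene was called at a Benjamini-Hochberg adjusted p under 0.05, over all genes tested, in the quasi-likelihood test (glmQLFTest) of edgeR 4.0.16, with TMM factors and all 15 libraries in 1 fit without covariates (R 4.3.3). Normalized counts, unshrunken log2 fold changes and SEs came from DESeq2 1.42.0, and levels were divided by exon length where genes were compared. The study used DESeq2 with a log2 cut-off of 2 and no p. The test was checked on simulated data. Libraries held 40934540 to 80925478 counts, and a count of 0 allows up to 3 counts; such limits cover counting error only, since reads amplified by PCR are not independent. All members are named, and of each fixed list up to 4 called genes with the largest changes or on which a sentence turns. Genes most like a member were the 3 with the highest Pearson's r, among those averaging 100 normalized counts or more. Members and lists were chosen with earlier results of these data known. From the fixed lists, 1 of the other bZIP factors and 1 whole list are not reported here, nor is 1 promoter motif, so the bZIP counts and medians are over the remaining genes. Alternatives were another test, normalization, filters, genes, groups fitted, block, cut-off and each library left out. DESeq2 without PBS replicate 3, and family levels and ratios without it, were added after the data were seen.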

Additional observations from a re-analysis of the deposited data

How the results depend on the processing

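No member's called value changed sign under any alternative. The study's fold cut-off is counted apart below, and fewer members passed it. Of 36 member calls in the 8 comparisons, 30 held under every other alternative fixed at the start. The remaining 6 were lost under at least 1 of these (Fos and Fosl2 for dsHMGB1 against PBS, Fosl2 for dsHMGB1 against frHMGB1, Batf3 for dsHMGB1 against LPS, and Fosl2 and Batf3 for LPS/IFNγ against LPS). Of 36 member values not called, 17 were called under some alternative, 15 of them without PBS replicate 3. Values called in neither fit changed sign 32 times, in 16 pairs of a member and a comparison. For frHMGB1 against PBS the number of members called was 0 and became 1 with DESeq2 and 0 to 5 when single libraries were left out (1 without PBS replicate 1, 2 without PBS replicate 2, 5 without PBS replicate 3). For dsHMGB1 against PBS it was 5 and became 3 when only those groups were fitted. For LPS against PBS leaving out single libraries gave 4 to 7. The study's fold cut-off gave 2 members for dsHMGB1 against PBS, 2 for dsHMGB1 against frHMGB1, 0 for dsHMGB1 against LPS, 2 for dsHMGB1 against LPS/IFNγ and 1 for LPS/IFNγ against LPS, because it asks for a larger change. Separated neighbours in the order of levels ranged from 9 to 21 when single libraries were left out. With the DESeq2 test and without PBS replicate 3, 57 of 72 values kept their call and 15 passed that had not. Deviations from the condition means do not settle whether the replicate numbers pair wells. Same-numbered wells correlated between -0.721 and 0.707, with 8 of 30 pairs over 0.1. Differently numbered wells correlated between -0.758 and 0.764, with 10 of 60 pairs over 0.1. Each of these lowest and highest values was between a PBS and a dsHMGB1 library. Pairs of all other conditions correlated between -0.189 and 0.186. With the replicate block, the members called were 0, 5, 5 and 7 against PBS in the order frHMGB1, dsHMGB1, LPS and LPS/IFNγ and 5 for LPS/IFNγ against LPS. Shares without division by exon length moved for 20 values, for example in PBS to 7.88% for Fosl2 and 33.1% for Jund. Depth limits Fosl1 and Fosb.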
